A study of Ovis aries with 8 samples.

Results

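Apart from ATOX1, a copper chaperone, the genes described here make, store, move and modify fatty acids, sterols and glycerolipids. Their RNA was read in the lung of the sheep fetus late in gestation. They were chosen by the gene name or the description that the array files give to each probe: FASN, ACLY, ACACA, ACSS2, LPL, PLIN1 and ABHD5 by name, and any other probe whose description names fatty acids, acyl-CoA, sterols, squalene, lysophospholipids or an acyltransferase. This took 23 of the 15008 probes on the array, 11 by name and 12 by description alone, and they stand for 15 genes (the array lists 14351 distinct gene names or identifiers), of which 8 had 2 probes and 7 had 1. Every one of the 23 probes passed the filter on dim signal, with 7 or 8 arrays well above background. The rule uses names and descriptions and no measured value, but it was set with earlier results of these data known.

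The lungs came from 4 sets of twin fetuses at about 130 days of a gestation of 147 days. In each set 1 fetus received 0.2 mg of aldosterone over 48 hours, begun 5 days after surgery, and its twin received vehicle, so the surgery, the infusion and the age were common to both groups. That gave 4 aldosterone and 4 control lungs, with whole-tissue RNA from each lung read on a separate 1-colour array of the same slide. Lungs with the same replicate number are taken below as twins of 1 set, which the sample titles do not state. Precision is limited by the number of arrays. The question was whether 48 hours of raised aldosterone, the adrenal hormone that acts through the mineralocorticoid receptor, changed the RNA of these genes.

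Fatty acid synthesis begins with acetyl-CoA, which ACLY makes from citrate and ACSS2 from acetate. ACACA carboxylates it to malonyl-CoA, and FASN joins these units into palmitate. In the lung near term, alveolar type II cells build palmitate into the phosphatidylcholine of surfactant, and lipid-laden fibroblasts beside them take up fatty acid that lipoprotein lipase, LPL, releases from circulating fat. Cholesterol, whose synthesis passes through squalene and the enzyme SQLE, is the main neutral lipid of surfactant.

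The probes are printed here because 5 of the 8 genes with 2 probes had probes that overlapped by 30 or more of their 60 bases and so read much of the same stretch of transcript. The single FASN and ACLY probes are given in lower case.
FASN: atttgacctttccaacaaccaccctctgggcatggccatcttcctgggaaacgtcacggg
ACLY: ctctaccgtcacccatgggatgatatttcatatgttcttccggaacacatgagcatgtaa
Of the paired probes, capitals mark the run of bases that both probes of the gene contain.
ACSS2 brighter probe: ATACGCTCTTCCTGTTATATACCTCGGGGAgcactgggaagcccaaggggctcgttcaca
ACSS2 other probe: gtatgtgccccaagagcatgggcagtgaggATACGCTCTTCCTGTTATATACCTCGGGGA
PLIN1 brighter probe: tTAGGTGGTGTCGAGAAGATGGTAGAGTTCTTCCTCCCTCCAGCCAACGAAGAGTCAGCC
PLIN1 other probe: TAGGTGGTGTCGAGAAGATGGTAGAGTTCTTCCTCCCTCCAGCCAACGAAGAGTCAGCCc
ATOX1 brighter probe: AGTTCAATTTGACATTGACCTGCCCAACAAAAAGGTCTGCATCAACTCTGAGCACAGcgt
ATOX1 other probe: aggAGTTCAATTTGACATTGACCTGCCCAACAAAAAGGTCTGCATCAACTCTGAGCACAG
For ACACA and LPAAT the first 30 bases show the shift of 2 bases and of 1 base between the probes of the pair.
ACACA brighter probe, first 30 bases: acTTTAGGTCTTTATTGGACAGGACTCTTG
ACACA other probe, first 30 bases: TTTAGGTCTTTATTGGACAGGACTCTTGTC
LPAAT brighter probe, first 30 bases: gCGTGGTTGATTTTTATTACTTATCTGGAT
LPAAT other probe, first 30 bases: CGTGGTTGATTTTTATTACTTATCTGGATA

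No member probe changed after aldosterone by the test across the whole array. Limma's moderated test with Benjamini-Hochberg adjustment called 0 of the 23 member probes (adjusted p = 0.99999 for each), as it called 0 of all 12170 probes tested (0% of the array). At an unadjusted p under 0.05 there was 1 member probe, an ACACA probe, against 228 probes or 1.87% of the array. It was lower, as 0.6% of the array was at that level, and 0 members were among the 1.27% that were higher. With the replicate number as a block, which pairs the twins, 0 member probes and 539 probes (4.43%) had an unadjusted p under 0.05. The member probes had a median log2 difference, aldosterone minus control, of 0.08, from -0.77 to 0.25, and 15 were higher and 8 lower. Over all tested probes the median was 0.01 and 51.5% were higher. In 0 of the 23 did the values of the 4 aldosterone lungs and the 4 control lungs lie apart without overlap, where 1.31% of the array did so in either direction (0.856% higher, 0.453% lower).

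**Figure D1:**
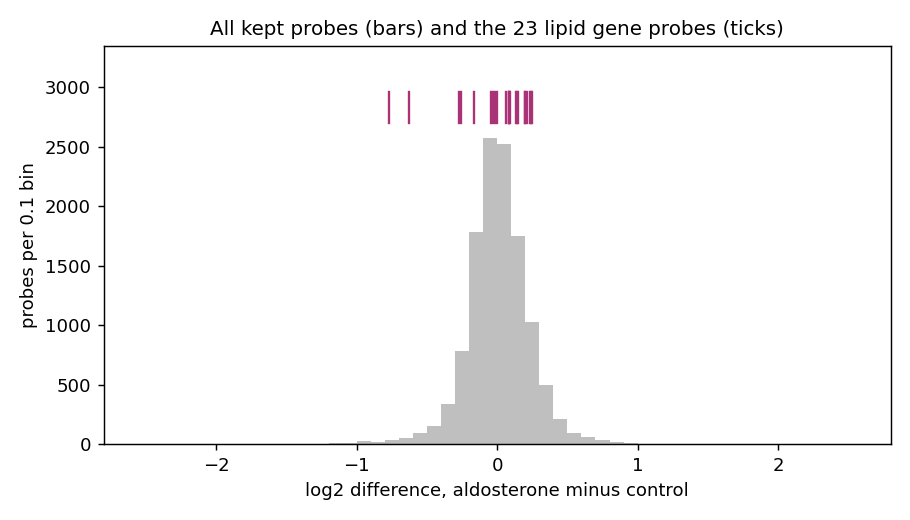
The bars count all tested probes by their log2 difference, aldosterone minus control, in bins of 0.1. Each tick above them is 1 of the 23 member probes, including those of ATOX1. Both ACACA probes, at -0.77 and -0.63, lie to the left, and the other 21 lie between -0.27 and 0.25.

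Levels below are log2 signal less the log2 of the 75th percentile of the same array, so that 0 marks that percentile. They rank the lungs for 1 probe and do not compare genes. Differences are log2 differences between group means, with limma's standard error and 95% interval.

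For the first enzymes of the pathway no difference passed the test. ACLY stood at -0.20, -0.58, -0.87 and -0.15 in control lungs 1 to 4 and at -0.14, -0.79, -0.38 and -0.14 in aldosterone lungs 1 to 4. The groups overlapped fully, and the difference was 0.09 ± 0.22 (SE, n = 4 per group; 95% interval -0.41 to 0.58). It was -0.06 without the control lung of replicate 3. ACSS2 gave -1.92, -3.10, -3.17 and -2.40 in the controls and -3.13, -3.18, -2.83 and -2.48 after aldosterone on its brighter probe. The control lung of replicate 1 was the highest of the 8, and the difference of -0.26 ± 0.30 was -0.02 ± 0.26 without it. The other ACSS2 probe, which shares 30 bases, gave -0.02 ± 0.21 and turned positive without any 1 of 4 lungs (both of replicate 1, control 4 and aldosterone 2), to at most 0.08.

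ACACA, the step that commits acetyl-CoA to fatty acid, was the member with the largest difference. Its brighter probe read -5.24, -4.51, -5.31 and -4.04 in the controls and -5.00, -5.85, -5.45 and -5.89 after aldosterone. The controls of replicates 2 and 4 were the highest of the 8 lungs and their aldosterone twins the lowest, while in the pairs of replicates 1 and 3 the twins were close. The difference was -0.77 ± 0.32, 0.586 times the control level, with an interval from -1.50 to -0.04 and an unadjusted p in limma of 0.041. An exact two-sided permutation test gave p = 0.114, where 0.0286 is the smallest that 4 lungs against 4 allow. By pair the difference was 0.25, -1.35, -0.13 and -1.85, and limma gave an unadjusted p of 0.0779 once the replicate number was a block. With 1 lung left out the difference ran from -0.95 to -0.52.

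The other ACACA probe, shifted by 2 bases and sharing 58, differed by -0.63 ± 0.36 (interval -1.45 to 0.20, unadjusted p in limma 0.12). By pair it gave 0.61, -1.46, 0.01 and -1.66, so pairs 2 and 4 again carried the difference. The probes share nearly all their sequence and are not separate evidence. Both read close to background: the raw mean signal of the brighter probe ran from 101 to 157 where its local background ran from 64.5 to 76.0, and 4 control but 3 aldosterone arrays read it well above background. After normexp and quantile normalization the difference was -0.27 in place of -0.77, with an unadjusted p of 0.0612 in limma. Within the first row of the slide, which held replicates 1 and 2, it was -0.55, and within the second -0.99.

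FASN, the synthase itself, was among the steadier members. It read -3.95, -3.81, -3.94 and -3.71 in the controls and -3.70, -3.32, -3.96 and -3.64 after aldosterone. The aldosterone lung of replicate 2 was the highest and that of replicate 3 the lowest of the 8, so the groups overlapped. The difference was 0.20 ± 0.16 (interval -0.16 to 0.56), higher in 3 of 4 pairs. Its raw mean signal ran from 145 to 210 over a background of 67 to 73. Once the group means were removed, the named probes outside these genes that followed FASN most closely over the 8 lungs, of 1052 searched, were that of LOC443442 (Pearson's r = 0.958) and both of ITGB2 (0.948 and 0.945), the beta-2 integrin of leukocytes. These are the highest of a search and carry no test.

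**Figure D2:**
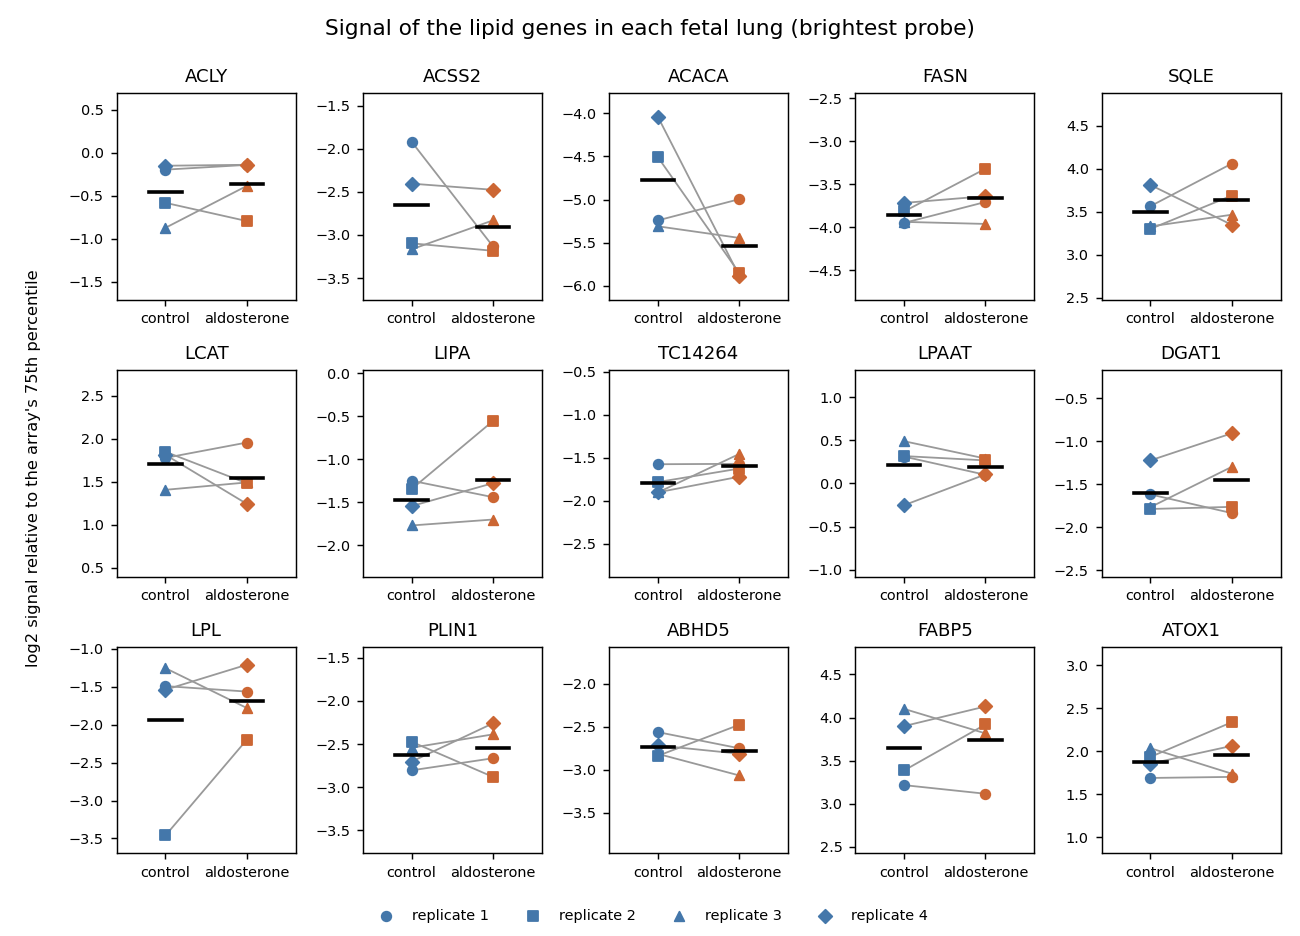
Each panel shows 1 gene by its brightest probe, with the log2 signal relative to the 75th percentile of the array on the vertical axis. Blue points are control and orange points aldosterone lungs, marker shapes give the replicate number, grey lines join same-numbered lungs, and black bars are group means of 4. The lines cross or run nearly level in most panels, and for ACACA only those of replicates 2 and 4 fall steeply.

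Sterol synthesis was represented by SQLE alone, the monooxygenase that opens the path from squalene to cholesterol. Its brighter probe read 3.56, 3.30, 3.33 and 3.81 in the controls and 4.06, 3.69, 3.46 and 3.35 after aldosterone. The aldosterone lung exceeded its twin in pairs 1, 2 and 3 and lay below it in pair 4. The difference was 0.14 ± 0.19 (interval -0.30 to 0.58), and the second probe, 185 bases away with no overlap, gave 0.14 ± 0.23. On that second probe the control lung of replicate 4, at 1.97, stood above the other controls, which lay from 1.14 to 1.25. Without it the difference was 0.33. Without the aldosterone lung of replicate 1 the brighter probe gave -0.0011.

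Of the genes that esterify, free or carry sterols, none passed the test. LCAT, which esterifies cholesterol on plasma lipoproteins, read 1.78, 1.85, 1.41 and 1.81 in the controls and 1.95, 1.48, 1.49 and 1.24 after aldosterone, a difference of -0.17 ± 0.18. The pairs were split, higher in 2 and lower in 2. LIPA, the lysosomal acid lipase that releases cholesterol from its esters, read -1.25, -1.35, -1.77 and -1.54 in the controls and -1.44, -0.56, -1.70 and -1.28 after aldosterone. The aldosterone lung of replicate 2 stood highest, and the difference of 0.23 ± 0.25 was 0.0043 without it. In that lung CYBB, an oxidase subunit of phagocytes, was also at its highest, -3.92 against -5.94 to -4.65 in the other lungs, and CD14, a monocyte receptor, was at -1.36 against -2.35 to -1.32. ITGAM, the third macrophage gene measured, was at -5.72 there on its tested probe, below control lungs 1 (-5.26) and 2 (-4.38). That probe was dim, passing background on 3 control and 1 aldosterone arrays. The second ITGAM probe, too dim to be tested, was highest in the aldosterone lung of replicate 2, at -5.58 against -6.51 or lower elsewhere. The part of macrophages in the LIPA difference was not tested. In whole-lung RNA, more cells of a type and more RNA per cell cannot be told apart.

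A probe whose description likens it to bovine oxysterol-binding protein, listed as TC14264, had the smallest spread of the members. It read -1.58, -1.78, -1.90 and -1.90 in the controls and -1.57, -1.63, -1.46 and -1.72 after aldosterone. It was the only member gene, by its brightest probe, to be higher in the aldosterone lung of all 4 pairs, by 0.0047, 0.16, 0.45 and 0.18, where 7.68% of the array was. The difference was 0.20 ± 0.13 (interval -0.11 to 0.50; exact two-sided permutation p = 0.0857).

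The enzymes that add acyl chains to a glycerol backbone were LPAAT, which makes phosphatidic acid, the precursor of phospholipids and of stored fat, and DGAT1, which makes triacylglycerol. LPAAT read 0.31, 0.32, 0.49 and -0.25 in the controls and 0.10, 0.27, 0.29 and 0.11 after aldosterone on its brighter probe. The control lung of replicate 4 was the lowest of the 8 and the rest lay close together. The differences of its probes were -0.03 ± 0.18 and 0.0027 ± 0.21, neither distinguishable from 0. DGAT1 read -1.62, -1.79, -1.77 and -1.22 in the controls and -1.84, -1.76, -1.30 and -0.91 after aldosterone. Both lungs of the replicate 4 pair were above the rest. The difference was 0.15 ± 0.23, and 0.24 ± 0.24 on the second probe, which lies 277 bases away. Without the aldosterone lung of replicate 4 these were -0.03 and 0.09.

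LPL, which frees fatty acid from circulating triacylglycerol, varied most between lungs. It read -1.49, -3.46, -1.25 and -1.54 in the controls and -1.56, -2.20, -1.78 and -1.21 after aldosterone. The control lung of replicate 2 stood far below the other controls, and its aldosterone twin was the lowest of its own group. From the lowest to the highest lung LPL spanned 4.76-fold, and its spread within groups (SD 0.78 on the log2 scale) was at the 94.3rd percentile of the array. Of the red blood cell genes, that lung had the highest AHSP (-0.79) and the highest HBB on the brighter probe (7.18). On the second HBB probe it read 4.46, below control 3 (5.22) and aldosterone 2 (4.83), and its CA1, at -0.54, was below that of 4 other lungs. The part of blood in its LPL value was not tested. The difference was 0.25 ± 0.47, and without the control lung of replicate 2 it was -0.26 ± 0.24. The second LPL probe shares 20 bases and gave 0.22 ± 0.43, and -0.24 without that lung.

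PLIN1 and ABHD5 act together at the fat droplet, where PLIN1 coats the surface and holds ABHD5, an activator of lipolysis. ABHD5 read -2.56, -2.84, -2.81 and -2.72 in the controls and -2.75, -2.48, -3.06 and -2.81 after aldosterone, a difference of -0.04 ± 0.16. The 8 lungs stayed within 1.50-fold of each other. PLIN1 had 2 probes shifted by a single base, and they went opposite ways. The brighter read -2.81, -2.47, -2.54 and -2.70 in the controls and -2.67, -2.88, -2.39 and -2.26 after aldosterone, a difference of 0.08 ± 0.17, higher in 3 of 4 pairs. The other read -3.57, -3.72, -2.95 and -3.73 against -3.97, -3.83, -3.44 and -3.80. The difference was -0.27 ± 0.21, lower in 4 of 4 pairs, as 5.65% of the array was. Once the replicate number was a block, limma gave this probe -0.27 ± 0.13, with an unadjusted p of 0.0791 (adjusted p = 0.878). The 2 PLIN1 probes share 59 of their 60 bases.

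FABP5, a carrier of fatty acids in the cytosol, read 3.21, 3.39, 4.10 and 3.90 in the controls and 3.11, 3.92, 3.82 and 4.13 after aldosterone. The difference was 0.09 ± 0.27, higher in 2 of 4 pairs, and it was -0.05 without the control lung of replicate 1. The remaining gene came in by a description that names the acyl-CoA synthetase ACSM3, but the files name it ATOX1 and its accession is that of ATOX1, a copper chaperone, in RefSeq (table of assembly ARS-UI_Ramb_v3.0). It was therefore not read as a lipid gene. Its probes differed by 0.08 ± 0.17 and 0.06 ± 0.18. Leaving its 2 probes out, 0 of 21 probes were called and the median difference was 0.09.

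**Figure D3:**
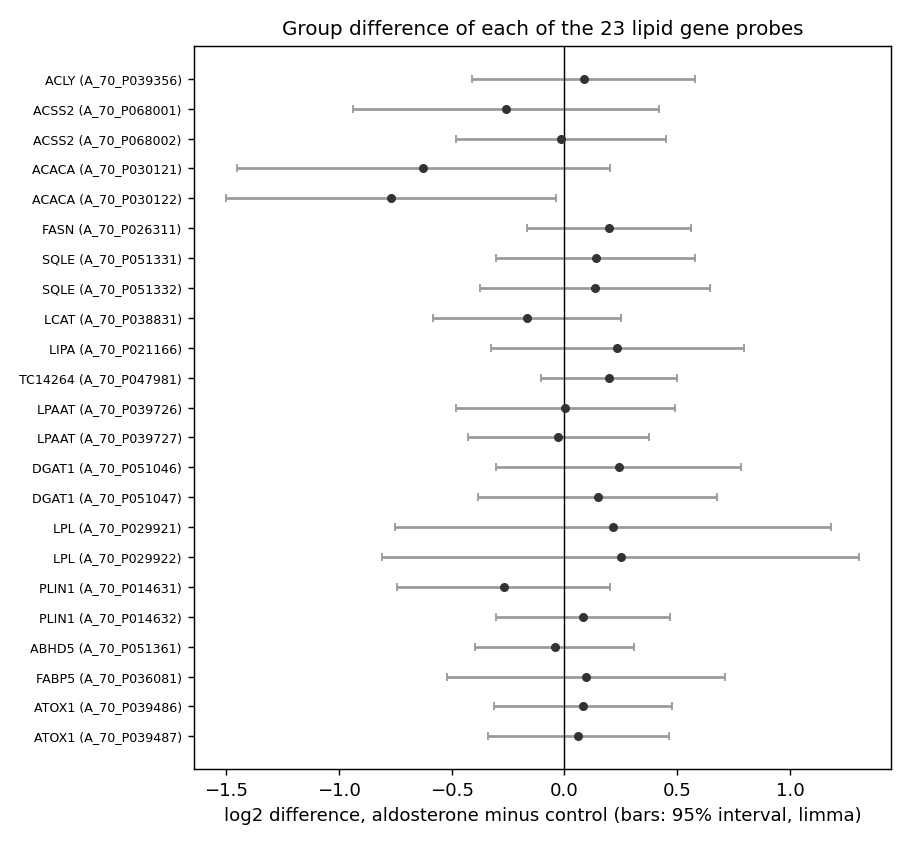
Points are the log2 differences of the 23 probes, aldosterone minus control, and bars their 95% intervals from limma. The interval of every probe includes 0 except that of the brighter ACACA probe (-1.50 to -0.04), and the LPL intervals are the widest, reaching 1.31.

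The intervals set what could be missed. For FASN, ABHD5, ACLY and SQLE (brighter probe) the upper bounds were 0.56, 0.31, 0.58 and 0.58, so for these a doubling lay outside the 95% interval of the single probe. The FASN probe read only 2.01 to 2.88 times its local background. After normexp and quantile normalization the FASN difference was 0.08 in place of 0.20. For LPL the interval ran from -0.81 to 1.31 and held a doubling. These intervals are from the fit on group only, which does not pair the twins. With the replicate number as a block the LPL difference was 0.25 ± 0.29 in place of 0.25 ± 0.47. Whether the LPL interval holds a doubling therefore depends on the fit. A difference that misses the threshold does not show that the groups were alike.

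The paired probes show how far 2 readings of the same gene differed on the same array. The SDs of these gaps are over all 8 arrays, so a gap that differs between the groups adds to them. The signal of the brighter LPAAT probe was 6.39-fold that of the other, although the 2 share 59 of 60 bases, and this gap varied little between arrays (SD 0.12 on the log2 scale). The PLIN1 probes, also shifted by 1 base, differed 2.05-fold, and their gap varied from 0.41 to 1.54 (SD 0.35). The ATOX1 probes, shifted by 3 bases, differed 1.09-fold with an SD of 0.04, and the dim ACACA probes 1.03-fold with an SD of 0.21. Signals of different probes were for this reason not read as levels of RNA. In 6 of the 8 genes with 2 probes the differences had the same sign, and in LPAAT and PLIN1 they did not.

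**Figure D4:**
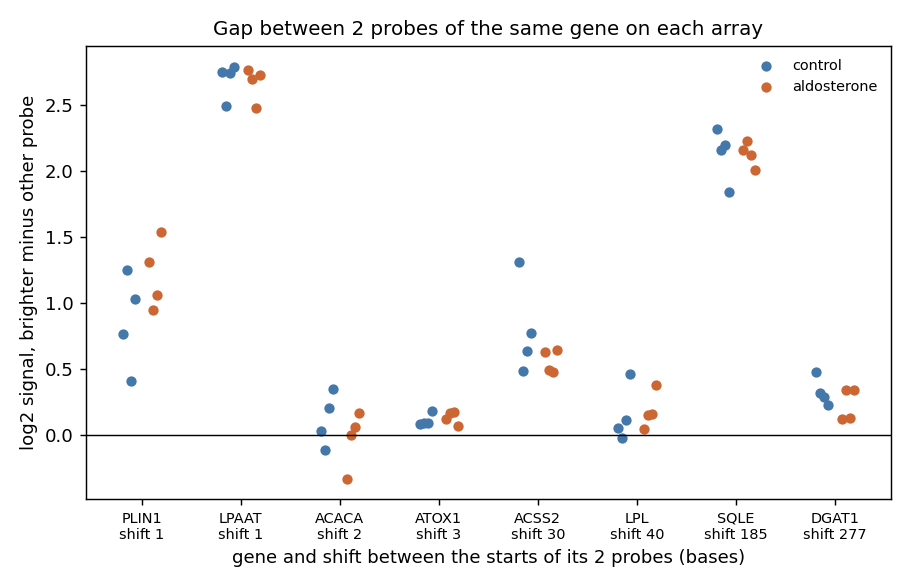
Each point is 1 array, and its height is the log2 signal of the brighter probe less that of the other probe of the same gene, with blue for control and orange for aldosterone. Genes are ordered by the shift between the starts of their probes, and the LPAAT points, shifted by 1 base, lie between 2.47 and 2.79 on all 8 arrays.

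The members' spread within groups was near that of the array, with a median SD of 0.32 against 0.29 over all tested probes. TC14264 lay at the 7.57th percentile of that spread, ABHD5 at the 22nd and FASN at the 24.9th. At the other end were ACACA (84.2nd on its brighter probe) and LPL. In 0 of the 23 probes did the lungs of the 2 slide rows lie apart, where 12.8% of the array did.

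Other genes of lipid metabolism were taken from a list of 59 regulators, transporters and enzymes. Of these 17 were found by name on the array and 14 were tested, 13 of them not among the members. None of the 13 passed the adjusted threshold, 9 were higher and 4 lower, and the median difference was 0.09. PRKAA2, a catalytic subunit of the AMP-activated kinase that inhibits ACACA, was the only 1 with an unadjusted p under 0.05 in limma (-0.83 ± 0.30). Over the array 1.87% of probes were at that level. The PRKAA2 probe was dim, passing background on 4 control but 2 aldosterone arrays. Its second probe was too dim to be tested and went the other way, from a mean of -6.55 in the controls to -6.08 after aldosterone. On it the aldosterone lung of replicate 2 read -4.83. PPARG, a receptor that drives fat storage, gave 0.40 ± 0.33, and ME1, which supplies NADPH for fatty acid synthesis, 0.32 ± 0.25. SCD, the desaturase that acts on palmitate and stearate, gave -0.01 ± 0.32. The mitochondrial carnitine transferases CPT1A and CPT1B gave 0.13 ± 0.33 and 0.11 ± 0.23, and PLIN2, the droplet coat of lipid-laden lung fibroblasts, -0.12 ± 0.23. SREBF1, SREBF2 and INSIG1 had no probe by these names and were not analysed here.

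Surfactant protein genes were read well above background in all 8 lungs. On their brighter probes SFTPC, the surfactant protein that only type II cells make, was at 7.97 or more in all 8 lungs, and SFTPA1 at 6.23 or more. On their second probes the lowest values were 7.72 and 6.04. Of the 4 adipocyte markers with a probe, PLIN1, LPL and LEP were well above background on all 8 arrays. FABP4, the adipocyte fatty acid carrier, was so on 0 of them. The liver genes with a probe, ALB and TTR, were also well above background on all 8 arrays. The summed linear signal of 3 type II cell genes ran from 448 to 617 in the controls and from 366 to 589 after aldosterone, and that of 3 macrophage genes from 0.256 to 0.349 and from 0.249 to 0.473, in units of the 75th percentile. These sums are weighted to their brightest probes, SFTPC and CD14. In the controls CD14 averaged -2.08 on the log2 scale, CYBB -5.34 and ITGAM -5.92. The sums are not amounts of RNA or of cells.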

How the data were processed

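The deposited scanner files hold spot intensity, which per the file headers the authors extracted with Agilent Feature Extraction 10.1.1.1, with spatial and multiplicative detrending. A log2 table the authors also deposited equals the log2 of that intensity after subtraction of 1 number per array, its column medians being 0. It was used as an alternative.

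Processed intensities of 15208 non-control spots were put on the log2 scale and the 75th percentile of each array subtracted. Flagged spots were left out and spots of a probe averaged. Probes well above background on at least 4 arrays were kept (12170). Groups were compared with limma 3.58.1 in R 4.3.3 (group only, two-sided, Benjamini-Hochberg over all kept probes, threshold 0.05), after a check on simulated data. The members and lists were chosen with earlier results of these data known.

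Genes were named by accession in the RefSeq table (17 member probes) or by symbol (3); 3 kept the file's name. Named were the 7 genes of the rule, any at unadjusted p under 0.05 or with a lung apart, and by role up to 4 genes of smallest p and the brightest, which took in all 15; of several probes the brightest on average is reported. After the group means were removed, same-numbered lungs correlated at 0.446, 0.275, 0.28 and 0.538 over 12148 probes, and different-numbered ones at -0.449 to 0.203. With the labels' twin design, same-numbered lungs were treated as pairs; part of the contrast is built in by removing the means, and same-numbered arrays lie side by side.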

Additional observations from a re-analysis of the deposited data

Results flagged for a closer look

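In 4 of the 46 sets of 4 lungs examined (23 probes in 2 groups), 1 lung stood apart from the other 3 by Dixon's gap, where chance alone flags about 1 in 20. On the brighter LPL probe the control lung of replicate 2 read -3.46 where the other controls lay from -1.54 to -1.25. On the second DGAT1 probe the control lung of replicate 4 read -1.45 where the others lay from -2.10 to -2.05. On the second SQLE probe the same lung read 1.97 against 1.14 to 1.25. For LCAT the control lung of replicate 3 read 1.41 against 1.78 to 1.85. All 4 were control lungs, and 2 of the 4 were that of replicate 4.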

How the results depend on the processing

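Neither the array nor the members held a probe past the adjusted threshold in any of the alternatives run, and the median of the members stayed above 0 in all of them, from 0.0062 to 0.12. The number of probes at an unadjusted p under 0.05 was 228, and it was 539 with the replicate block, 818 with array weights and 343 with the slide row as a block; leaving out 1 lung it ran from 143 to 422. Among the members this number was 1, and it was 0 with the replicate block, after normexp and quantile normalization and with the slide row as a block. It was also 0 among probes well above background on all arrays, but that filter removed both ACACA probes. Leaving out 1 lung gave 0 to 2. The share of higher probes among those at that threshold was 68% in the values reported, 52.5% with arrays centred on their medians and 42.2% in the authors' values.
The weaker LPAAT probe turned negative with the array median (-0.036), after normexp and quantile normalization (-0.030), in the series table (-0.056) and with array weights (-0.088). PLIN1 gave -0.0095 after normexp, the weaker ACSS2 probe 0.14 with array weights, and ATOX1 -0.051 and -0.0059 there. The cause was not tested. Leaving out 1 lung turned the sign of at least 1 probe of ABHD5 (-0.14 to 0.053), ACLY (-0.055 to 0.23), the weaker ACSS2 probe (-0.13 to 0.084), ATOX1 (-0.044 to 0.17 and -0.054 to 0.15), DGAT1 (-0.033 to 0.28), FABP5 (-0.051 to 0.30), LPAAT (-0.19 to 0.10 and -0.18 to 0.065), LPL (-0.24 to 0.46 and -0.26 to 0.48), PLIN1 (-0.013 to 0.19) and SQLE (-0.0011 to 0.24). The brighter ACACA probe was well above background on 7 of 8 arrays.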

Other observations

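STAR, the protein that carries cholesterol into mitochondria for steroid synthesis, was on the list of other lipid genes but was too dim to be tested. Its 2 probes read -3.26 and -3.00 in the aldosterone lung of replicate 2, where they were well above background. In the other 7 lungs they lay from -8.80 to -7.45 and from -9.17 to -6.88, and 1 control array was well above background on 1 of the probes. Both probes are of the same gene.

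CPT1A, the enzyme that admits long fatty acids to mitochondria for oxidation, lay apart between the rows of the slide, as 12.8% of the array did. It read -2.62 and -2.36 in control lungs 1 and 2 and -2.29 and -2.16 in their aldosterone twins, all in the first row. In the second row, control lungs 3 and 4 read -3.22 and -3.28 and their twins -3.12 and -3.39. Its second probe gave the same separation. SCD, the desaturase, also lay apart by row, from -4.00 to -3.29 in the first and from -3.20 to -2.25 in the second. Each row held 2 twin sets, so the row and the sets cannot be told apart.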
